A study of Picromerus lewisi with 6 samples.

Results

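Proteins that are secreted in venom are made on the endoplasmic reticulum, and the transcripts described here encode the machinery that brings them in, folds them and adds sugars to them. They were taken from the venom gland transcriptome of Picromerus lewisi, a predatory stink bug of the family Pentatomidae. A transcript cluster was a member if its first protein match came from Halyomorpha or Nezara, other pentatomid stink bugs, and its Swiss-Prot description named one of 15 kinds of protein, such as Sec61, signal peptidase, BiP or disulfide-isomerase. The rule used descriptions only and gave 33 of 22242 clusters, out of 11822 with such a first match. Venom glands of adults (3 libraries) were compared with venom glands of 5th-instar nymphs (3 libraries); no treatment or genotype is given in the labels. The labels name neither sex nor age in days, and do not say whether a library came from 1 animal or a pool, so the p-values reflect the variation among 6 libraries that may differ for technical reasons alone. Fewer cells of a type and less RNA per cell cannot be told apart in RNA from whole glands.

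A protein bound for secretion carries a signal peptide that the signal recognition particle (SRP) binds as it leaves the ribosome. The SRP receptor docks the complex at the Sec61 channel, through which the chain enters the lumen, and signal peptidase removes the signal peptide. In the lumen BiP and endoplasmin hold unfolded chains, protein disulfide isomerases form and shuffle disulfide bonds, and oligosaccharyltransferase adds N-linked glycans that calreticulin binds during folding. Receptors return escaped chaperones from the Golgi, and derlins take part in moving misfolded chains out to be degraded. Salivary venom glands of stink bugs are secretory glands, and many of their products, serine proteases among them, enter this route.

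Levels are given as rescaled FPKM, which are fragments scaled by cluster length and library total (FPKM), divided by 1 factor per library. The factors level the typical cluster among those above 0 in every library, not among all clusters tested. Adult replicate 1 had 84.5% of its deposited FPKM in clusters matching the bug's mitochondrial genome and adult replicate 2 had 18.6%, against 52.7% to 74.3% in the other libraries. Clusters at FPKM of at least 1 numbered 4927 in adult replicate 1, 18155 in adult replicate 2 and from 8679 to 14040 in the others. These libraries therefore stood apart; the number of members with an unadjusted p under 0.05 is also given without each of them, as are the log2 differences that moved most when 1 of them was left out. The low FPKM values move in whole fragments, which gave library totals of 13332813 to 18655496 fragments over the clusters of 400 bases or longer. Behind the members lay 0 to 25237 fragments per value, and 28 of the 33 members had at least 20 fragments in every library.

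Most members had log2 differences above 0, with BiP, endoplasmin, protein disulfide-isomerase A6 and SRP receptor beta the largest, and none passed the threshold over the whole table. All 33 members were tested, and 30 had a log2 difference above 0 (adult minus nymph, on log2(rescaled FPKM + 1)), against 38.4% of all clusters tested. Their median log2 difference was 0.87, and that of all 11961 clusters tested was -0.29. The members were not matched in level to these clusters, of which at most 4653 were above 0 in every library. At a limma adjusted p under 0.05, 0 members were called in a table with 0.234% of clusters called, and the lowest adjusted p among members was 0.246. At an unadjusted p under 0.05 there were 13 members higher in adults, where the whole table had 2.95% of clusters, and 0 lower, where it had 6.09%. In 11 members every adult library lay above every nymph library, which held for 3.95% of all clusters tested, and in 0 every adult library lay below, which held for 10.1%. Among the 8185 tested clusters with the same kind of first match as the members, 35.6% lay above 0, 2.91% were higher and 6.63% lower at an unadjusted p under 0.05, and 4.31% lay wholly above and 11.6% wholly below.

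These counts depended on the scaling and on single libraries. On FPKM as deposited 27 members lay above 0, 1 had an unadjusted p under 0.05 and 1, BiP, did not overlap between stages. After rescaling to an equal total these counts were 22, 0 and 1. Where a member's level is said below not to overlap, this holds on rescaled FPKM, and for all but BiP not on FPKM as deposited. Of all 11961 clusters tested, 35.9% lay above 0 as deposited and 32.4% at equal total. Those higher in adults at an unadjusted p under 0.05 numbered 186 as deposited and 115 at equal total. The share of all clusters that did not overlap was not computed at either setting, so the members' counts of non-overlap there have no background. The number of members with an unadjusted p under 0.05 was 9 when adult replicate 1 was left out, 2 when adult replicate 2 was and 12 when adult replicate 3 was. Leaving out nymph replicate 1, 2 or 3 gave 12, 7 and 2. All were higher in adults. Over all clusters tested, those higher in adults at that p numbered 247 of 11363, 305 of 8743 and 477 of 10763 without adult replicates 1, 2 and 3. Without nymph replicates 1, 2 and 3 they numbered 443 of 9463, 211 of 9974 and 199 of 9775. Only 32 members were tested without adult replicate 2, adult replicate 3 or nymph replicate 2. The median of the members stayed above that of all clusters tested by 0.86 to 1.51 on the log2 scale over the main setting and 18 others. Of the 33 members, 20 were above 0 in each of those settings in which they were tested, 2 were below 0 in each, and 11 changed sign in at least 1.

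Adult replicate 2 was the top library for most members. The highest of the 6 values fell in adult replicate 2 for 22 of 33 members, against 13.4% of all clusters tested. After centring each member on its own mean, the library medians of the members were 0.31, 1.13 and 0.04 in adult replicates 1, 2 and 3. They were -0.41, -0.27 and -0.58 in nymph replicates 1, 2 and 3. For all clusters tested the same medians were -0.77, 0.15 and -0.17 in adults, against 0.26, 0.1 and 0.16 in nymphs. The summed rescaled FPKM of the members was 1361, 2262 and 938 in adults, against 649, 758 and 638 in nymphs. The stage means were 1520.0 ± 676 (SD, n = 3) and 682 ± 66.5, a ratio of 2.23, and 1.69 without adult replicate 2. On this scale the lowest adult sum lay above the highest nymph sum. On FPKM as deposited it did not: the sums were 386, 3715 and 1462 in adults, against 663, 1032 and 632 in nymphs, so that adult replicate 1 was the lowest library.

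**Figure D1:**
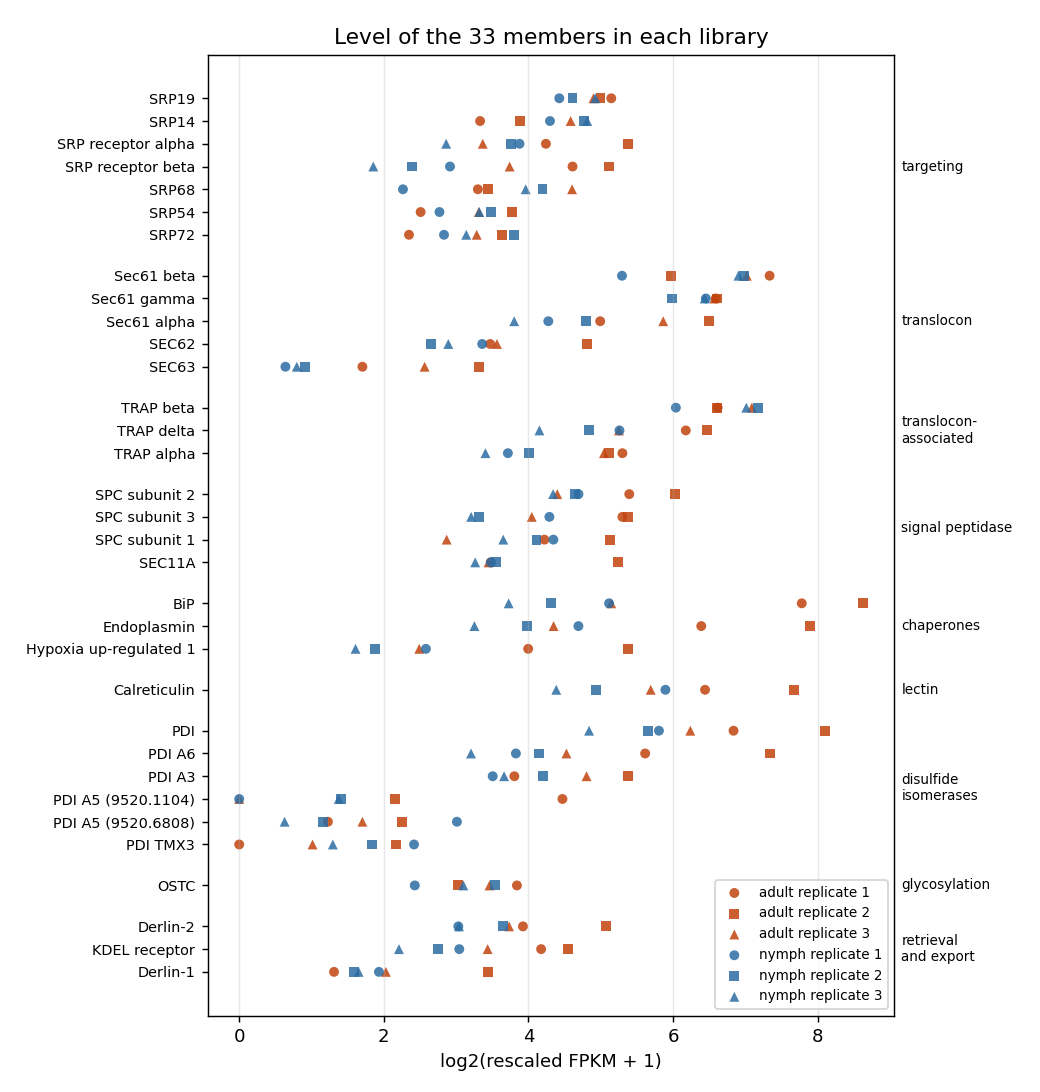
Level of each of the 33 members in each library, as log2(rescaled FPKM + 1), with members in rows by role, adult libraries in orange, nymph libraries in blue and the replicate number as the marker shape. BiP spreads widest among the chaperones, from 12.2 in nymph replicate 3 to 395 rescaled FPKM in adult replicate 2, while Sec61 gamma lies between 62.6 and 96.9 in all libraries.

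The targeting step was split: the subunits of the SRP itself had log2 differences from -0.7 to 0.36, and the receptor's beta subunit was higher in every adult library. SRP receptor beta (Cluster-9520.2401), the membrane-anchored GTPase that holds the receptor at the endoplasmic reticulum, was at 23.4, 33.6 and 12.4 rescaled FPKM in adult replicates 1, 2 and 3 and at 6.54, 4.25 and 2.62 in nymph replicates 1, 2 and 3. All adult libraries lay above all nymph libraries on this scale. On FPKM as deposited adult replicate 1, at 6.64, lay just below nymph replicate 1, at 6.69. Its log2 difference was 2.1 ± 0.57 SE (limma unadjusted p = 0.004, adjusted p = 0.246), the lowest adjusted p of any member. It stayed between 1.75 and 2.41 with each library left out in turn. In nymph replicate 3 the value rests on 25 fragments and in adult replicate 1 on 50.

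The receptor's alpha subunit (Cluster-9520.3007), the GTPase that meets the SRP, was at 17.9, 40.4 and 9.33 rescaled FPKM in adults, against 13.7, 12.5 and 6.27 in nymphs, so the stages overlapped (log2 difference 0.83 ± 0.62 SE, and 0.28 without adult replicate 2). SRP19 (Cluster-9520.1884), which helps assemble the particle's RNA, was at 34.4, 30.9 and 28.8 in adults, against 20.5, 23.4 and 29.4 in nymphs. SRP14 (Cluster-9520.3020), part of the domain that slows elongation, lay the other way, at 9.07, 13.7 and 23.0 in adults, against 18.7, 26.3 and 27.1 in nymphs. Its log2 difference was -0.7 ± 0.52 SE (limma unadjusted p = 0.212). The first protein match of the SRP14 cluster is the P subunit of phosphatidylinositol N-acetylglucosaminyltransferase, so its reads may come from more than 1 gene. SRP54, SRP68 and SRP72, the subunits that bind signal peptides or the particle's RNA, had log2 differences of 0.01, 0.31 and -0.17. The ratio of SRP receptor beta to SRP19 needs no scaling between libraries, and this and the other ratios below were chosen after the values were seen. Of 12 such ratios computed, 4 did not overlap between the stages and 8 did. The share among ratios of other clusters was not computed, so these counts have no background. This ratio was 0.681, 1.08 and 0.428 in adults, against 0.319, 0.182 and 0.089 in nymphs, with no overlap between the stages.

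Among the channel proteins, the pore-forming subunit and the BiP-recruiting partner had the largest log2 differences, and the small subunits had the smallest. Sec61 alpha (Cluster-9520.5352), which forms the pore, was at 30.8, 89.0 and 57.2 rescaled FPKM in adults, against 18.4, 26.7 and 13.0 in nymphs (log2 difference 1.49 ± 0.56 SE, limma unadjusted p = 0.0234, adjusted p = 0.424). SEC63 (Cluster-9520.1020), whose J domain brings BiP to the channel, was at 2.26, 8.99 and 4.91 in adults, against 0.557, 0.875 and 0.737 in nymphs. The adult mean of SEC63 was 5.39 ± 3.39 (SD, n = 3) and the nymph mean 0.723 ± 0.159, and the log2 difference of 1.75 on the scale with 1 added understates a ratio at such levels. SEC63 rested on 19.9 to 53.1 fragments in the nymph libraries and 20.9 in adult replicate 1. Without adult replicate 2, adult replicate 3 or nymph replicate 2 it no longer met the filter on low values. On FPKM as deposited adult replicate 1, at 0.64, lay within the nymph range of 0.57 to 1.19. SEC62 (Cluster-9520.2397), its partner in post-translational translocation, was at 10.1, 27.1 and 10.8 in adults, against 9.27, 5.26 and 6.42 in nymphs, without overlap (limma unadjusted p = 0.109).

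Sec61 gamma (Cluster-9520.5293), a small subunit that clamps the pore, was at 95.4, 96.9 and 94.1 in adults, against 86.7, 62.6 and 85.7 in nymphs. Relative to their mean, these adult values were the most even of any member, at 95.4 ± 1.41 (SD, n = 3), and lay just above the nymph values (log2 difference 0.3 ± 0.46 SE). That evenness holds after rescaling only: as deposited the adult values were 27.0, 159 and 147 FPKM. Sec61 beta (Cluster-9520.4604), the other small subunit, was at 160.5, 61.5 and 129 in adults, against 38.2, 126 and 119 in nymphs, and was the one channel subunit at its adult minimum in adult replicate 2. The log2 difference of Sec61 beta was 0.38 with a 95% interval from -1.01 to 1.77, an interval that reaches past 2-fold in both directions. After rescaling to an equal total the log2 differences of Sec61 beta and gamma turned to -0.14 and -0.21. As subunits of 1 channel, alpha and gamma stood in a ratio of 0.323, 0.919 and 0.609 in adults, against 0.212, 0.427 and 0.151 in nymphs, and these ranges overlapped. So did the ratios of alpha and of gamma to beta, at 0.192, 1.45 and 0.444 and at 0.594, 1.57 and 0.73 in adults, against 0.48, 0.213 and 0.109 and 2.27, 0.499 and 0.721 in nymphs.

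The translocon-associated proteins (TRAP), which sit beside the channel and aid the entry of some chains, divided in the same way. TRAP alpha (Cluster-9520.5248) was at 38.4, 33.8 and 32.0 rescaled FPKM in adults, against 12.1, 15.1 and 9.59 in nymphs. On this scale the adult libraries lay close together and above all nymph libraries (log2 difference 1.45 ± 0.48 SE, limma unadjusted p = 0.0121, adjusted p = 0.338), and the difference stayed between 1.28 and 1.56 with each library left out. As deposited, TRAP alpha was at 10.9, 55.4 and 49.9 FPKM in adults, against 12.4, 20.5 and 9.5 in nymphs, so the stages overlapped. TRAP delta (Cluster-9520.1818) was at 71.3, 87.7 and 37.1 in adults, against 37.3, 27.5 and 16.8 in nymphs, where adult replicate 3 and nymph replicate 1 met (log2 difference 1.22 ± 0.55 SE, limma unadjusted p = 0.0498). TRAP beta (Cluster-9520.3999) was at 97.1, 96.4 and 135 in adults, against 64.8, 143 and 128 in nymphs, with a log2 difference of 0.03 ± 0.52 SE that was -0.48 after rescaling to an equal total. The ratio of TRAP alpha to TRAP beta within a library was 0.395, 0.35 and 0.237 in adults, against 0.188, 0.105 and 0.0748 in nymphs. This ratio did not overlap between the stages. The ratio of TRAP delta to TRAP beta, of the same complex, did overlap, at 0.734, 0.91 and 0.275 in adults, against 0.576, 0.192 and 0.131 in nymphs.

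Signal peptidase, which cuts off the signal peptide, had 4 members, all with log2 differences above 0, from 0.04 to 1.31. Subunit 3 (Cluster-9520.3221), needed for the activity of the complex, was at 38.4, 40.7 and 15.5 rescaled FPKM in adults, against 18.6, 8.92 and 8.24 in nymphs (log2 difference 1.31 ± 0.58 SE, limma unadjusted p = 0.0461). Adult replicate 3 lay below nymph replicate 1. Subunit 2 (Cluster-9520.5818) was at 41.1, 64.1 and 20.1 in adults, against 24.8, 24.05 and 19.3 in nymphs. Subunit 1 (Cluster-9520.3317), a regulatory subunit, was at 17.6, 34.1 and 6.31 in adults, against 19.3, 16.3 and 11.6 in nymphs, so that 2 of its 3 adult values lay within or below the nymph range. Its log2 difference of 0.04 was -0.23 on FPKM as deposited and -0.51 without adult replicate 2. The catalytic subunit SEC11A (Cluster-9520.3195) was at 36.7 in adult replicate 2 and between 8.6 and 10.8 in the other 5 libraries, and its log2 difference of 0.62 was 0.01 without adult replicate 2.

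The folding chaperones had a median log2 difference of 2.24 over 3 members, the largest median among the role groups, which were not tested against each other, and their adult libraries lay far apart. BiP (Cluster-9520.2561), the Hsp70 of the lumen, was at 219, 395 and 34.4 rescaled FPKM in adults, against 33.7, 18.8 and 12.2 in nymphs. Adult replicate 3 was only just above nymph replicate 1, and adult replicates 1 and 2 stood far above the rest. The means were 216 ± 180 (SD, n = 3) and 21.6 ± 10.98, a ratio of 10.02, which was 5.87 without adult replicate 2, and the log2 difference was 2.8 ± 0.83 SE (limma unadjusted p = 0.00696, adjusted p = 0.291). It was the largest of any member at the main setting. Without adult replicate 3 it was 3.77 and passed the threshold (limma adjusted p = 0.0392); with any other library left out it did not, and the difference went down to 2.05.

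Endoplasmin (Cluster-9520.6275), the Hsp90 of the lumen, was at 82.9, 237 and 19.4 in adults, against 24.8, 14.8 and 8.53 in nymphs. Adult replicate 3 was below nymph replicate 1, so the stages overlapped (log2 difference 2.24 ± 0.83 SE, limma unadjusted p = 0.0219), and without adult replicate 2 the difference was 1.37. Hypoxia up-regulated protein 1 (Cluster-9520.5162), a large Hsp70 relative that exchanges nucleotide on BiP, was at 15.0, 40.7 and 4.62 in adults, against 4.99, 2.67 and 2.05 in nymphs (log2 difference 1.93 ± 0.74 SE, limma unadjusted p = 0.0259), and its difference without adult replicate 2 was 1.18. These 3 chaperones kept 1 order over the libraries at the top, adult replicate 2 above adult replicate 1, and at the bottom, nymph replicate 3 below nymph replicate 2. The summed level of the 3 was 317, 673 and 58.4 in adults, against 63.5, 36.2 and 22.8 in nymphs, a ratio of stage means of 8.55 that was 4.59 without adult replicate 2. The ratio of BiP to Sec61 alpha overlapped between the stages, at 7.1, 4.44 and 0.601 in adults, against 1.83, 0.703 and 0.945 in nymphs. The ratio of endoplasmin to BiP was 0.379, 0.599 and 0.563 in adults, against 0.738, 0.785 and 0.697 in nymphs, with no overlap.

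The venom gland marker list, mostly serine proteases, was abundant in every library. On rescaled FPKM it shared part of its order over libraries with the chaperones. Its 80 clusters, of which 3 to 20 were listed at 0 in a given library, summed to 234400, 305400 and 84630 rescaled FPKM in adults, against 82470, 130400 and 68170 in nymphs. Adult replicates 2 and 1 were the top libraries in both sums, and nymph replicate 3 the lowest in both. Both sums were divided by the same factor per library, 0.283 in adult replicate 1, so this shared order can come in part from the scaling. The order of these sums on FPKM as deposited was not computed. Muscle markers (28 clusters) ran from 89.3, in adult replicate 2, to 308 in adults, and from 256 to 565 in nymphs. Epidermal markers (22 clusters, mostly cuticle proteins) ran from 5.13 to 13.1 in adults, and from 45.9 to 322 in nymphs, with 14 to 20 of the 22 listed at 0 in each adult library and 2 to 12 in each nymph library. Fat body markers (9 clusters) ran from 1.13 to 57.2 in adults and 24.3 to 30.2 in nymphs. Haemocyte markers (18 clusters) ran from 333 to 1324 and from 261 to 1793, and neuronal markers (14 clusters) from 58.9 to 81.8 and from 59.9 to 71.8. All these lists go by description alone. The haemocyte list includes clusters whose first match is a venom serine protease, such as Cluster-9520.4726 and Cluster-9520.4452. The neuronal list includes extended synaptotagmin and synaptotagmin-like clusters. The venom gland list includes the mitochondrial protease HTRA2 (Cluster-5588.0) and serine protease inhibitors such as Cluster-9520.5333. These sums may therefore not be levels of those cells. The part of shifts in the marker levels in the members' differences was not tested.

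**Figure D2:**
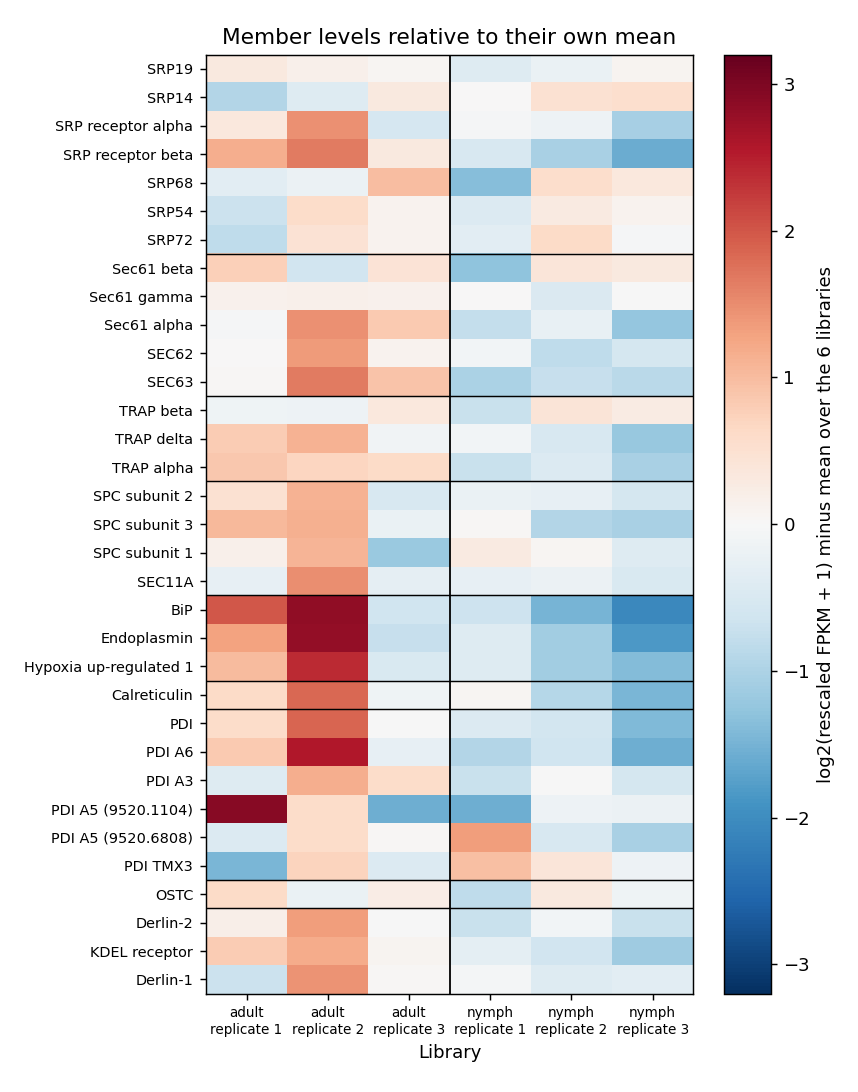
Members (rows, by role) in the 6 libraries (columns), coloured by log2(rescaled FPKM + 1) minus the member's mean over the libraries, red above and blue below. The chaperones BiP, endoplasmin and hypoxia up-regulated protein 1 are reddest in adult replicate 2 and bluest in nymph replicate 3, while the SRP19 and TRAP beta rows stay pale.

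Calreticulin (Cluster-9520.4010), the lectin that retains glycoproteins bearing a trimmed glycan, was at 85.97, 202 and 50.7 rescaled FPKM in adults, against 58.5, 29.5 and 19.9 in nymphs. Only nymph replicate 1 reached into the adult range (log2 difference 1.53 ± 0.64 SE, limma unadjusted p = 0.037, adjusted p = 0.501), and without adult replicate 2 the difference was 0.97. It was the only lectin chaperone that the rule found. The ratio of calreticulin to BiP was 0.393, 0.512 and 1.47 in adults, against 1.74, 1.57 and 1.63 in nymphs, with no overlap. Per length, BiP thus exceeded calreticulin in adult replicates 1 and 2 and calreticulin exceeded BiP in the other 4 libraries.

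Of the 6 disulfide isomerase clusters, none passed the threshold over the whole table, and in the 2 most abundant, PDI and PDI A6, every adult library lay above every nymph library. Protein disulfide-isomerase (PDI, Cluster-9520.3951), the classical enzyme, was at 113, 273 and 74.5 rescaled FPKM in adults, against 54.9, 49.2 and 27.6 in nymphs, with no overlap (log2 difference 1.63 ± 0.6 SE, limma unadjusted p = 0.0207, adjusted p = 0.4, and 1.08 for the difference without adult replicate 2). PDI A6 (Cluster-9520.2767), which is found with BiP in vertebrate cells, was at 48.0, 161 and 22.0 in adults, against 13.2, 16.7 and 8.23 in nymphs, again with no overlap. Its log2 difference was 2.1 ± 0.71 SE (limma unadjusted p = 0.0137, adjusted p = 0.352) and went down to 1.31 without adult replicate 2. PDI A3 (Cluster-9520.4738), which works with calreticulin on glycoproteins, was at 13.0, 40.6 and 26.9 in adults, against 10.4, 17.5 and 11.7 in nymphs (log2 difference 0.87 ± 0.56 SE), with adult replicate 1 below nymph replicate 2.

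The other isomerase clusters were low. TMX3 (Cluster-13046.0), a membrane-bound isomerase, was at 3.51 and 1.02 in adult replicates 2 and 3, listed at 0 in adult replicate 1, and at 4.34, 2.56 and 1.45 in nymphs. Its log2 difference of -0.79 ± 0.81 SE was the lowest of all members. PDI A5 matched 2 clusters of 574 and 1426 bases, which may be pieces of 1 gene, with log2 differences of 1.28 ± 1.08 SE and 0.13 ± 0.82 SE. The shorter of the PDI A5 clusters was at 21.2 in adult replicate 1, from 24 fragments, and listed at 0 in adult replicate 3 and nymph replicate 1, and its difference was 0.18 without adult replicate 1.

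**Figure D3:**
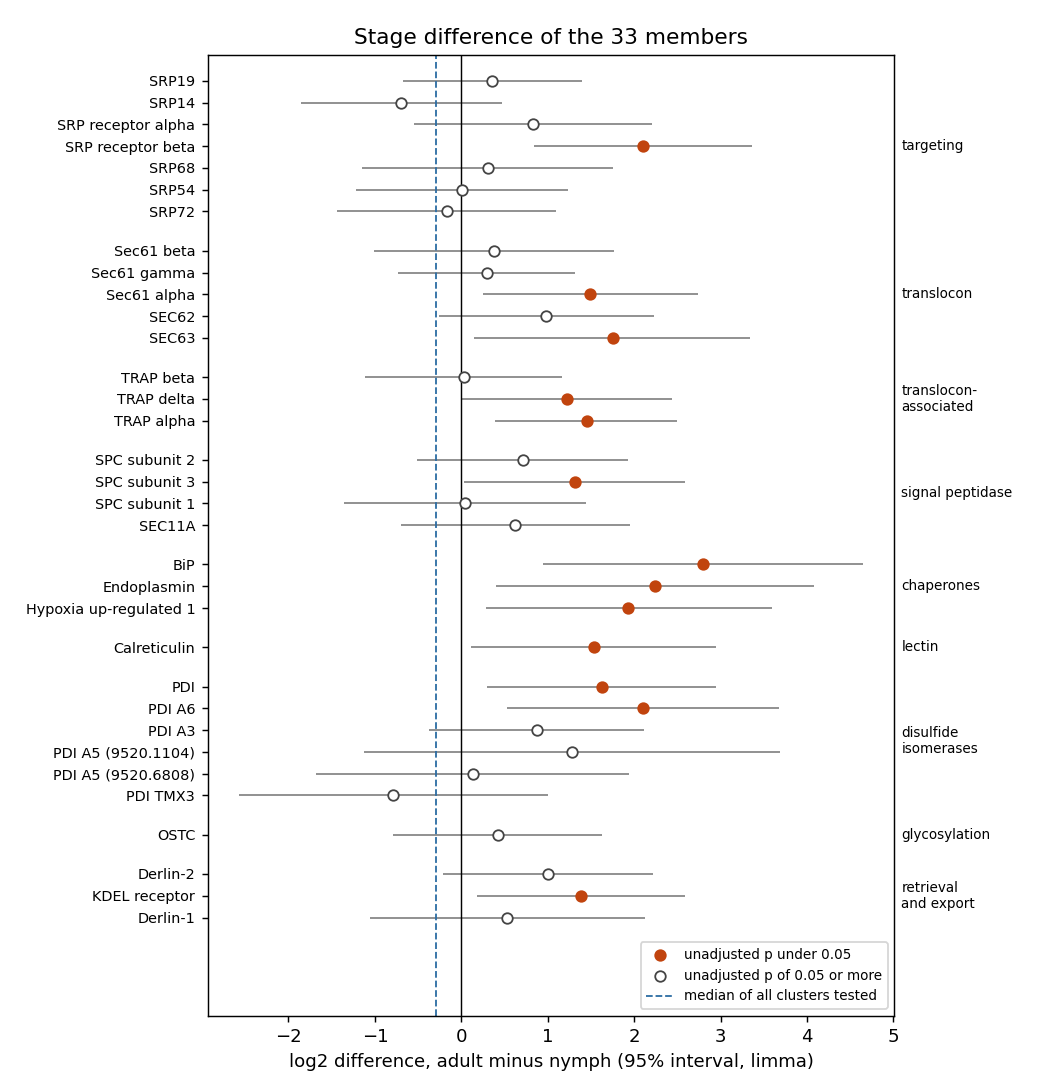
Log2 difference, adult minus nymph, of each member with its 95% interval from limma, by role. Filled points have an unadjusted p under 0.05, the solid line is 0 and the dashed line is the median of all clusters tested, -0.29; the filled points run from 1.22 (TRAP delta) to 2.8 (BiP), and none passes after adjustment.

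N-glycosylation had 1 member by the rule, OSTC (Cluster-9520.5158), an accessory subunit that links oligosaccharyltransferase to the channel. It was at 13.3, 7.15 and 10.02 rescaled FPKM in adults, against 4.38, 10.6 and 7.57 in nymphs, so the stages overlapped (log2 difference 0.42 ± 0.54 SE). For OSTC, as for Sec61 beta and TRAP beta, adult replicate 2 was the lowest adult library.

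Retrieval and export were served by 3 members. The ER lumen protein-retaining receptor (Cluster-9520.4941), which returns chaperones that carry a retention signal, was at 17.1, 22.3 and 9.82 in adults, against 7.25, 5.71 and 3.62 in nymphs, with every adult library above every nymph library (log2 difference 1.39 ± 0.54 SE, limma unadjusted p = 0.0279, adjusted p = 0.443). Derlin-2 (Cluster-9520.3523) was at 14.2, 32.6 and 12.3 in adults, against 7.17, 11.5 and 7.22 in nymphs, without overlap (log2 difference 1.0 ± 0.55 SE). Derlin-1 (Cluster-9520.7340) was at 1.48, 9.85 and 3.08 in adults, against 2.82, 2.01 and 2.14 in nymphs, and its log2 difference of 0.53 was -0.07 without adult replicate 2. Derlins belong to the exit route for misfolded chains.

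Genes of the same pathway that the rule does not take lay mostly above 0 as well. Of 77 such clusters, 69 were tested and 52 lay above 0, where the whole table had 38.4%, with a median log2 difference of 0.67. None passed after adjustment over the whole table, while 6 were higher and 1 lower at an unadjusted p under 0.05, where the whole table had 2.95% and 6.09%. In 13 every adult library lay above every nymph library and in 2 below, where it had 3.95% and 10.1%. The 2 were ASNA1 and a tail-anchored protein factor (Cluster-9520.5864), the latter named after its values were seen. The summed rescaled FPKM of the 77 was 617, 1053 and 613 in adults, against 446, 478 and 394 in nymphs.

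Of 29 clusters for N-glycosylation, 26 were tested and 22 lay above 0 (median 0.85). DAD1 (Cluster-9520.2234), a small subunit of oligosaccharyltransferase and the most abundant of the list, was at 37.0, 20.3 and 18.1 in adults, against 17.9, 25.7 and 29.7 in nymphs. The catalytic subunit STT3A (Cluster-9520.2256), added after its values were seen, was at 6.81, 11.8 and 8.44 in adults, against 4.43, 2.37 and 1.72 in nymphs, with no overlap (log2 difference 1.41 ± 0.58 SE, limma unadjusted p = 0.0333). Glucosidase 2 subunit beta, which trims glucose from new glycans as part of its enzyme, had the largest and the smallest difference of the list in different clusters. Cluster-9520.6724 was at 6.56, 7.37 and 4.62 in adults, against 0.851, 0.61 and 0.767 in nymphs (log2 difference 2.03 ± 0.64 SE), and Cluster-5400.0 at 0, 5.38 and 6.27 in adults, against 5.78, 8.28 and 9.32 in nymphs (log2 difference -1.27 ± 0.8 SE).

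Among 18 folding helpers, 16 were tested and 13 lay above 0 (median 1.02). DnaJ C3 (Cluster-9520.5725), a co-chaperone of BiP, was at 11.5, 30.2 and 7.76 in adults, against 3.06, 1.14 and 2.33 in nymphs, with no overlap (log2 difference 2.29 ± 0.64 SE, limma unadjusted p = 0.00482, adjusted p = 0.263). MANF (Cluster-9520.3766), a secreted protein kept in the lumen through BiP and the most abundant of the list, was at 21.6, 57.2 and 24.4 in adults, against 2.93, 23.8 and 10.01 in nymphs. Thioredoxin domain-containing protein 9 (Cluster-8494.0), which is not a lumenal enzyme in mammals, had the lowest difference, -0.55. The nucleotide exchange factor SIL1 (Cluster-9520.6055) and the oxidase Ero1 (Cluster-9520.2088), which recharges PDI, were added to the text after their values were seen. SIL1 had a log2 difference of 1.56 ± 0.71 SE. Ero1 was at 10.2, 12.2 and 1.06 in adults, against 1.05, 2.22 and 0.586 in nymphs, so its stages overlapped (log2 difference 1.62 ± 0.83 SE). Stromal cell-derived factor 2-like protein 1 (Cluster-9520.3874), more abundant than both, had a log2 difference of 0.25 ± 0.85 SE. Peptidyl-prolyl isomerase B was at 0.25 ± 0.65 SE in Cluster-9520.3894 and at 1.82 ± 0.89 SE in the less abundant Cluster-8504.0.

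Factors that insert membrane proteins were closer to level, with 6 of 11 above 0 (median 0.43). TRAM1 (Cluster-9520.3990), which lies beside Sec61 during insertion, was the most abundant at 39.0, 139 and 77.4 in adults, against 24.8, 67.8 and 28.9 in nymphs. ASNA1 (Cluster-9520.207), the cytosolic ATPase that delivers tail-anchored proteins without Sec61, was at 0, 2.52 and 4.89 in adults, against 10.4, 6.64 and 7.51 in nymphs, the 1 cluster of the lists lower in adults at an unadjusted p under 0.05 (log2 difference -1.72 ± 0.74 SE, limma unadjusted p = 0.0415). Subunit 1 of the ER membrane protein complex (Cluster-9520.1610) had the highest difference of these factors, 1.07.

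Of 11 degradation factors, 9 lay above 0 (median 0.52), led by synoviolin A (Cluster-9520.7712), the ubiquitin ligase of the exit route, at 3.24, 8.68 and 3.57 in adults, against 2.26, 0.573 and 0.555 in nymphs (log2 difference 1.52 ± 0.72 SE). Another, more abundant synoviolin cluster (Cluster-9520.1291) was at 15.7, 15.95 and 6.68 in adults, against 10.96, 9.65 and 6.96 in nymphs. Its stages overlapped (log2 difference 0.37 ± 0.54 SE). The most abundant was a cluster of the ATPase TER94 (Cluster-9520.4830), which pulls chains from the membrane, with the lowest difference, -0.69. Another TER94 cluster (Cluster-9520.4793) lay the other way, at 0.52 ± 0.76 SE. Sensors and effectors of the unfolded protein response were mostly at low levels: 5 of 8 clusters were tested and 2 lay above 0 (median -0.44). The most abundant was X-box-binding protein 1 (Cluster-9520.6435), the transcription factor whose RNA is spliced when unfolded proteins build up. It was at 60.6, 71.7 and 44.6 in adults, against 31.1, 24.5 and 16.8 in nymphs, with no overlap (log2 difference 1.27 ± 0.5 SE, limma unadjusted p = 0.0282, adjusted p = 0.446). The table gives 1 value per cluster, so spliced and unspliced forms could not be told apart. A cluster of site-1 protease (Cluster-8927.0), which releases ATF6 in mammals, had the lowest difference, -1.21. It was listed at 0 in adult replicates 1 and 3 and in nymph replicate 2.

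**Figure D4:**
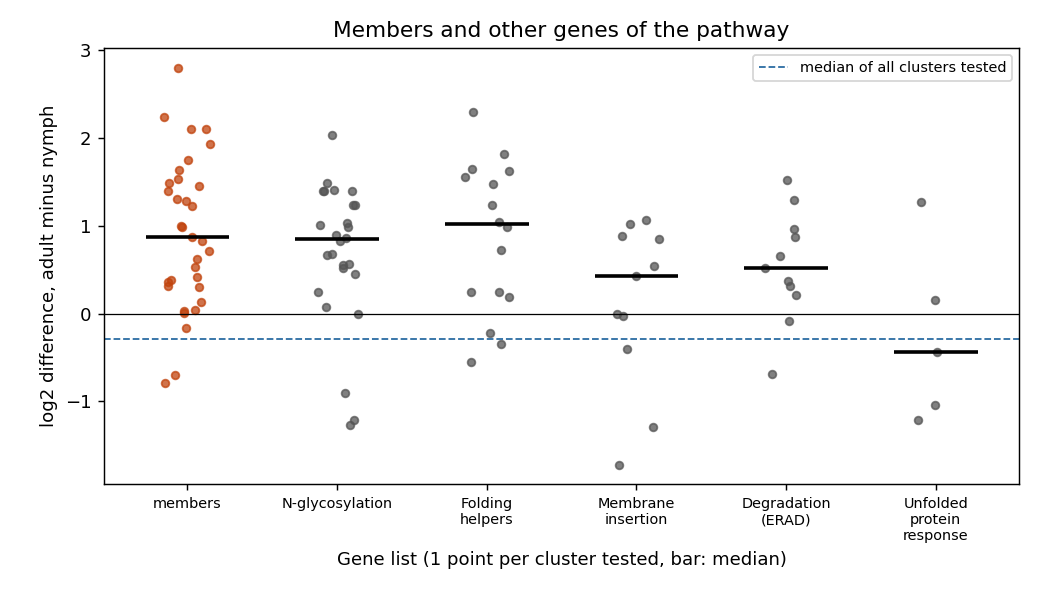
Log2 difference, adult minus nymph, of the tested clusters among the 33 members and 5 other lists of the pathway; each point is a cluster, each bar the list's median and the dashed line the median of all clusters tested, -0.29. The medians are 0.87 for the members, 0.85 for N-glycosylation, 1.02 for folding helpers, 0.43 for membrane insertion, 0.52 for degradation and -0.44 for the unfolded protein response.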

How the data were processed

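The authors deposited FPKM for 22242 transcript clusters, 1 column per library, with cluster length and best database matches. The tools in the submitters' processing notes are HISAT2 2.0.5, DESeq2 1.20.0, featureCounts 1.5.0-p3, CASAVA 1.8 and fastp, listed without their roles. How the FPKM were computed is therefore not stated. No reference sequence entered the analysis.

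FPKM were divided by median-ratio factors over 4653 clusters above 0 in all libraries (0.283, 1.64 and 1.56 in adult replicates 1 to 3, 1.02, 1.36 and 0.99 in nymph replicates 1 to 3). Stages were compared on log2(rescaled FPKM + 1) with limma 3.58.1 in R 4.3.3 (trend and robust), for the 11961 clusters that reached an FPKM of 1 in 3 or more libraries, with Benjamini-Hochberg adjustment over all of them. The scale understates changes of low clusters. The fit was tested on simulated data.

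Fragments were recovered as FPKM times total times length less an offset, both fitted per library so that low values came out whole. Of the values held out of that fit, 99.4% to 99.8% came out whole to within 0.15. The offsets ran from 217 to 293 bases, so clusters under 1000 bases, 8 of the 33, compare less well between libraries. Fragments cover counting error only.

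The members, lists and tests were chosen with earlier results of these data known. Named in each role group were the 3 most abundant members, the largest and smallest difference and every unadjusted p under 0.05, and in each other list the most abundant, largest and smallest; others were added after their values were seen. Descriptions that matched a list only inside another word were left out. The alternatives were other pseudocounts, filters, scalings, variance models, a replicate block and each library left out.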

Additional observations from a re-analysis of the deposited data

How the results depend on the processing

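The whole table had 28 clusters called at a limma adjusted p under 0.05. That count was 12 with a pseudocount of 0.1, 104 with no filter, 65 with a mean FPKM filter, 72 on FPKM as deposited, 47 after quantile normalization, 65 with library quality weights, 47 with FPKM recomputed over the full cluster length (an alternative added after seeing the data), and from 1 to 54 with single libraries left out. Members called numbered 0 at the main setting and from 0 to 1 with single libraries left out, the 1 being BiP without adult replicate 3. Members that did not overlap between stages numbered 11. The number was 1 on FPKM as deposited, 1 with equal library totals and from 12 to 20 with single libraries left out. With a library left out fewer values have to separate, so 12 to 20 cannot be set against the 11. The share over all clusters was computed for the main setting only. The median of all clusters tested moved from -0.29 to -0.07 after quantile normalization and to -0.59 with a pseudocount of 0.1.

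Members near 0 changed sign. On FPKM as deposited the log2 differences of signal peptidase subunit 1, SRP54 and TRAP beta were -0.23, -0.14 and -0.27. After rescaling to an equal total those of OSTC, signal peptidase subunit 1, SRP19, SRP68, SRP54, Sec61 beta, Sec61 gamma and TRAP beta were -0.03, -0.41, -0.12, -0.1, -0.3, -0.14, -0.21 and -0.48. After quantile normalization signal peptidase subunit 1 was at -0.03 and SRP72 at 0.07, and with library quality weights SRP68, Sec61 beta and TRAP beta were at -0.11, -0.23 and -0.21. With single libraries left out the ranges were -0.51 to 0.59 for signal peptidase subunit 1, -0.45 to 0.22 for SRP72, -0.37 to 0.82 for the longer PDI A5 cluster, -0.07 to 1.07 for derlin-1, -0.3 to 0.38 for SRP54, -0.32 to 0.63 for SRP68, -0.35 to 0.21 for TRAP beta and -0.19 to 0.76 for Sec61 beta. The cause of these changes was not tested. With the replicate number as a block 29 clusters and 0 members were called; deviations of same-numbered libraries correlated at 0.165, -0.0427 and 0.213, and adult replicate 2 correlated best with nymph replicate 1, so the numbers were not taken as pairs.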

Other observations

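A second cluster described as BiP (Cluster-9520.2562), whose first protein match is from the bean bug Riptortus pedestris and which the rule therefore leaves out, was at 1.02 and 5.34 rescaled FPKM in adult replicates 1 and 2, 0.303 in nymph replicate 1 and listed at 0 in the other 3 libraries. Reads of near-identical copies could not be told apart in these values.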
